A study of Mus musculus with 10 samples.

Results

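The extracellular matrix genes followed here are 44 mouse genes of collagens, laminins, other matrix proteins and the enzymes that process or cut them. Each was described by 1 Ensembl transcript, the one with most RNAseq reads on average, and 36 of the 44 had a transcript among the 13189 genes listed in the counts. Col1a2, Col4a1, Col11a1, Col16a1, Lama2, Lamb2, Nid2 and Timp2 were not analysed here. Of the 36, 17 were measured in the sense used below and 19 lay under the minimum for it.

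The cells were primary cortical cells of P0 pups of the FVB strain, taken from both sexes and grown for 7 days in medium with horse serum as a mixture of neurons and glia. The wells carried a coat of poly-L-ornithine and of mouse laminin, a matrix protein supplied from outside that adds no RNA. Untreated cultures (numbered 1, 2 and 3) were compared with cultures depolarized by KCl at 55 mM for 3 h (numbered 4 and 5), and a further KCl replicate had been removed by the authors for its small library. All cultures received cycloheximide, which halts ribosomes on the mRNA, shortly before lysis. Each lysate gave an RNAseq library, which reads RNA abundance, and a ribosome footprint (RF) library, which reads the mRNA fragments covered by ribosomes. The labels do not say that the cultures came from separate animals, so the p-values measure at most the spread between cultures, which may be technical.

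Collagens are secreted as triple helices. The fibrillar types I, III and V form the fibres of connective tissue, while type IV collagen, laminins, nidogen, perlecan and agrin build the basement membranes that surround vessels and cover the brain surface. Matricellular proteins such as thrombospondins, tenascin-C, SPARC and CTGF are secreted into the matrix and act on cells and growth factors more than they bear load. In the brain, fibroblasts of the meninges and cells of the vessel wall make most fibrillar collagen, whereas astrocytes secrete thrombospondins, SPARC and tenascin-C.

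Sequences around the start codon are shown first, because Col1a1 and Col3a1, chosen for their fall in TE after KCl, share letters there. The windows hold 24 bases before the start codon and its first 6 bases on the coding strand of the GRCm38 genome, and capitals mark the shared letters.
Col1a1, chr11:94936345-94936374, plus strand: agtctaCATGTCTagggtcTAGACATGttc
Col3a1, chr1:45311724-45311753, plus strand: gagtctCATGTCTgatattTAGACATGatg
Col5a2, chr1:45502909-45502938, minus strand: gacccaCATGTCTcatattTAGACATGatg
For comparison, the same windows of another fibrillar and of a basement membrane collagen lack these letters.
Col5a1, chr2:27886792-27886821, plus strand: ccccggcccgcgcaccccgccggcatggac
Col4a2, chr8:11313440-11313469, plus strand: gtctagagctcaaagactgggatcatggac

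The pattern CATGTCTNNNNNNTAGACATG was read off by keeping runs of at least 6 identical bases between Col1a1 and Col3a1, after their values had been seen. It was searched on the coding strand at this position only. Of 20923 listed transcripts with such a window, 3 (0.0143%) carried it, those of Col1a1, Col3a1 and Col5a2. The last 3 letters of the pattern are the start codon. An upstream ATG lies at position -17 from it and is followed after 4 codons, the ATG included, by the stop TAG inside the pattern. The reverse complement of the first block, AGACATG, is contained in the second, so the blocks could pair. The start region of type I and type III collagen mRNAs is known to fold into a stem-loop that the RNA-binding protein LARP6 binds. An upstream ATG anywhere in the 5′UTR was present in 8 of the 17 measured matrix transcripts (47.1%) and in 50.1% of all measured transcripts.

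RNAseq levels were reads on all regions of the transcript per kilobase and RF levels were reads on the coding sequence (CDS) per kilobase. Both were scaled to library size after TMM normalization within each assay, written below as normalized RPKM. Translation efficiency (TE) was the RF level over the RNAseq level of the same culture. Transcripts with RPKM of at least 10 in both assays in at least 2 cultures were called measured, which held for 7262 transcripts. KCl cultures count for this minimum, and Thbs1 would not have met it on the untreated cultures alone. RNAseq libraries had between 3056286 and 3629959 reads and RF libraries between 1463654 and 7719915.

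In untreated cultures the measured matrix genes had a higher TE than most measured transcripts. The median TE of the 17 measured members was 3.4, and that of all 7262 measured transcripts was 1.82. TE lay above the latter in 15 of the 17, and in 14 it did so in each of the 3 untreated cultures. Sparc (1.76 ± 0.127; SD, n = 3) and Timp1 (1.46 ± 0.112) were the 2 measured members below it, and Bgn (1.83 ± 0.392) was the lowest above it. The median TE of the 19 members under the minimum was 3.96. Of these 19, 18 had an untreated RNAseq level under 10 normalized RPKM and 2 had an RF level under 10, so most of them missed the minimum by their RNA, the denominator of TE, and their TE cannot be set against that of the measured transcripts.

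The highest TE among measured members was that of Timp3, an inhibitor of metalloproteinases that stays bound to the matrix, at 8.94 ± 0.416 (SD, n = 3). Thbs1, which encodes thrombospondin-1, followed at 8.01 ± 1.04 and Mmp14, a membrane-bound matrix metalloproteinase, at 6.43 ± 0.968. The untreated RNAseq level of Thbs1 was 9.73 normalized RPKM, so the limit on the TE of members under the minimum applies to it too. Thbs1 is also among the measured members counted above the median TE. The SDs of Timp3 and Thbs1 overlap, and so do those of Thbs1 and Mmp14. Among members under the minimum, TE was highest for the basement membrane collagen Col4a5 (7.84 ± 1.41) and for Col5a2 (7.46 ± 2.31), and lowest for Col5a3 (1.84 ± 0.582).

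By RNA, Sparc stood far above the others at 867 ± 43.1 normalized RPKM (SD, n = 3). Bgn, the small proteoglycan biglycan, had 86.1 ± 16.0 and Serpinh1, the collagen chaperone HSP47, had 83.9 ± 9.48, and these levels did not differ beyond their spread. Dcn, the small proteoglycan decorin, had 66.8 ± 8.51, Col1a1 had 56.9 ± 4.64 and Timp1, a secreted inhibitor of metalloproteinases, had 46.3 ± 4.09. The remaining measured members lay between 9.73 for Thbs1 and 28.6 for Timp3, and the 19 others between 1.11 for Col5a3 and 10.8 for Lox.

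**Figure D1:**
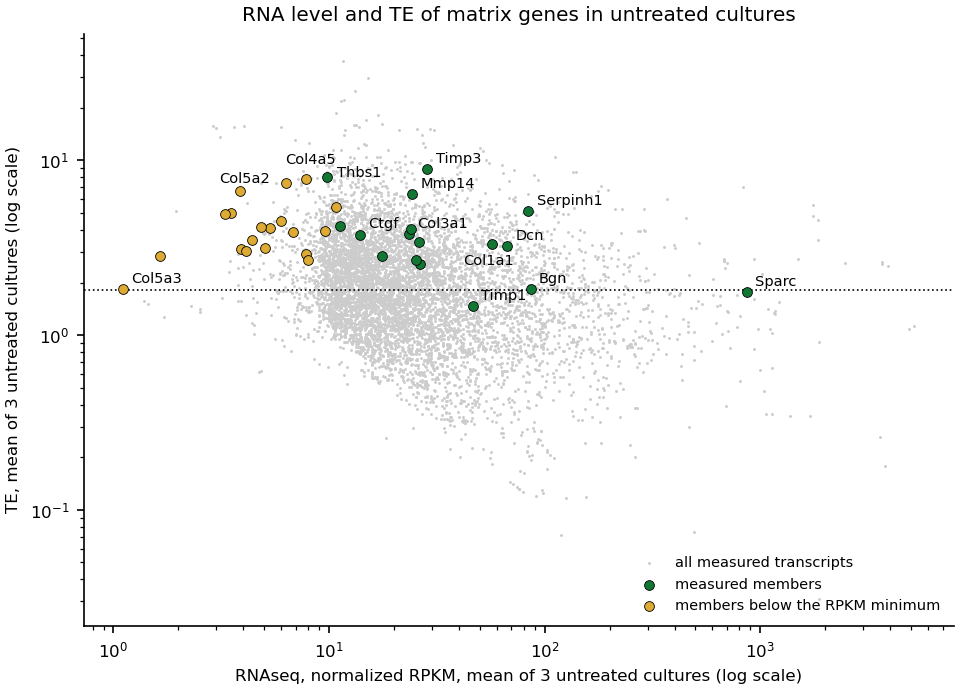
Each point is a transcript, with the mean RNAseq level of the 3 untreated cultures in normalized RPKM on the horizontal axis and mean TE on the vertical axis, both on log scales. Green points are the 17 measured matrix genes, yellow points the 19 under the minimum, grey points all 7262 measured transcripts, and the dotted line is their median TE of 1.82. Sparc lies far to the right at 867 normalized RPKM, and of the green points Sparc and Timp1 lie below the line.

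After KCl, Thbs1 and Ctgf rose and Timp1 fell in both assays, while Col1a1 and Col3a1 fell in RF and TE. Differences were tested with edgeR's quasi-likelihood test over all 7262 transcripts with Benjamini-Hochberg adjustment, and a call means an adjusted p under 0.05. In RNAseq, 7 of the 17 were called, against 33.2% of all measured transcripts. Thbs1 and Ctgf rose (2 of 17, against 17.5% of all), while Col1a1, Col4a2, Lamc1, Timp1 and Timp3 fell (5 of 17, against 15.7%). In RF, 12 of the 17 were called, against 41.0% of all. Sparc, Tnc, Bgn, Dcn, Thbs1, Mmp14, Serpinh1 and Ctgf rose (8 of 17, against 21.2%), and Col1a1, Col3a1, Lamc1 and Timp1 fell (4 of 17, against 19.8%). Thbs1 was measured only through its KCl cultures, so its place among the rises in both assays was partly set by the filter. In TE, 3 of the 17 were called, against 5.8% of all, with a rise of Bgn (1 of 17, against 1.67%) and falls of Col1a1 and Col3a1 (2 of 17, against 4.13%). The median log2 fold change of the 17 was -0.07 in RNAseq, 0.09 in RF and 0.17 in TE, and over all measured transcripts it was -0.01, -0.00 and 0.03. With library totals in place of TMM, which move the median of all transcripts to -0.08 in RNAseq and to -0.11 in RF, the split in RF was 5 up and 5 down in place of 8 up and 4 down. The split in RNAseq stayed at 2 up and 5 down with library totals and in DESeq2. It was 3 up and 2 down with edgeR's filterByExpr and 3 up and 3 down with RNAseq reads on the CDS only. With no filter beyond 1 read, or without untreated culture 2, it was 2 up and 2 down. The larger number of falls in RNAseq thus depended on the processing. With 3 and 2 cultures there are only 10 ways to assign the treatment, so the smallest p of an exact permutation test is 0.1. In whole cultures, fewer cells of a type and less RNA per cell cannot be told apart.

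**Figure D2:**
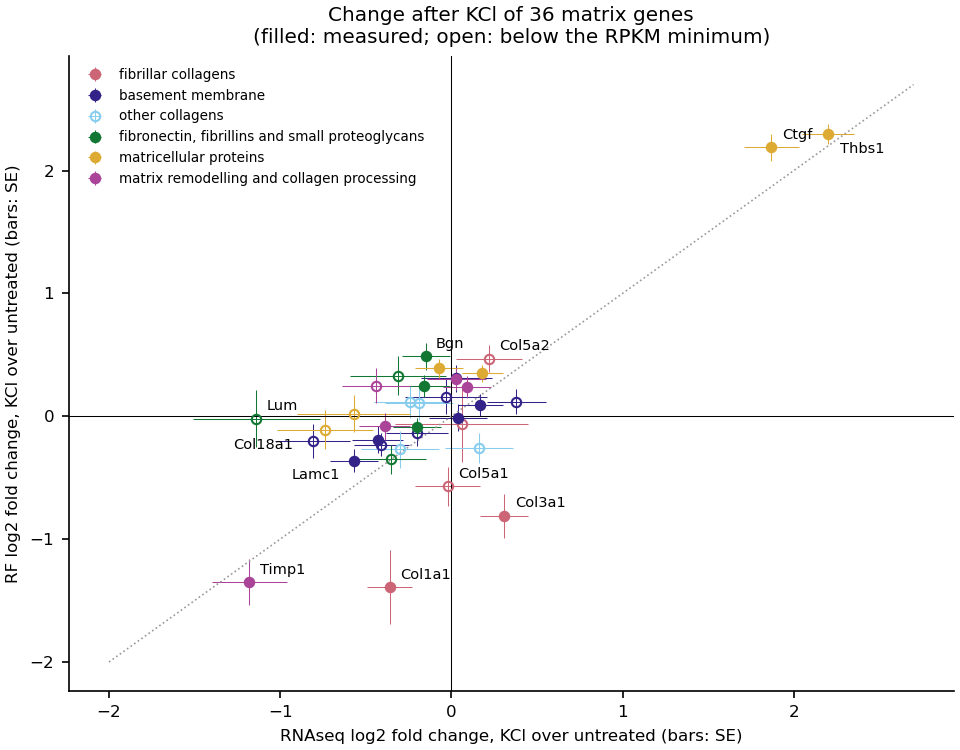
Log2 fold changes after KCl in RNAseq (horizontal) and RF (vertical) with their SEs are shown for 36 matrix genes colored by role, with filled points for measured genes, open points for those under the minimum, and a dotted line where both changes are equal. Thbs1 and Ctgf stand at the upper right and Timp1 at the lower left near the line, while Col1a1 and Col3a1 lie well below it.

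Of the 6 listed matricellular genes, the 4 that were measured rose in RF, against 21.2% of all measured transcripts, and Thbs2 (log2 fold change -0.11) and Postn (0.02), under the minimum, were not called in RF. Since Thbs1 met the minimum only through its KCl cultures, the filter itself favours rises in this count. Thbs1, which inhibits vessel growth and promotes synapse formation, lies on chromosome 2 from 118111876 to 118127133 of GRCm38. Its RNAseq level was 9.37, 11.2 and 8.68 normalized RPKM in untreated cultures 1, 2 and 3 and 47.2 and 42.1 in KCl cultures 4 and 5. Its RF level was 78.2, 76.3 and 76.8 without and 372 and 385 with KCl. The groups were far apart in both assays, and the RF values of the untreated cultures were nearly equal. The log2 fold change was 2.20 in RNAseq (SE 0.15, adjusted p = 5.46e-16, edgeR) and 2.30 in RF (SE 0.08, adjusted p = 4.7e-17, edgeR). Its TE went from 8.01 ± 1.04 (SD, n = 3) to 8.52 ± 0.903 (SD, n = 2), with overlapping groups and a log2 fold change of 0.10 (adjusted p = 0.837, edgeR). In RF, Thbs1 was the 55th highest rise of 7262 transcripts.

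Ctgf, the connective tissue growth factor named Ccn2 in the annotation, lies on chromosome 10 from 24595442 to 24598678. Its RNAseq level was 14.3, 13.8 and 13.6 normalized RPKM without and 51.7 and 50.0 with KCl. In RF it had 56.6, 49.1 and 50.8 without and 220 and 255 with KCl. As for Thbs1, the KCl values lay well above all untreated values. Its log2 fold change was 1.87 in RNAseq (SE 0.16, adjusted p = 1.33e-12, edgeR) and 2.19 in RF (SE 0.11, adjusted p = 4.97e-14, edgeR), the 62nd highest rise. TE was 3.76 ± 0.204 (SD, n = 3) and 4.68 ± 0.607 (SD, n = 2), and its log2 fold change of 0.32 was not called (adjusted p = 0.485, edgeR).

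Sparc, a collagen-binding glycoprotein, and Tnc, the large hexameric tenascin-C, rose in RF while RNAseq gave no call. The RF level of Sparc was 1560, 1520 and 1496 normalized RPKM without and 1918 and 1967 with KCl, a log2 fold change of 0.35 (SE 0.07, adjusted p = 0.000414, edgeR). The RF level of Tnc was 92.9, 95.1 and 101 without and 128 and 124 with KCl, a log2 fold change of 0.39 (SE 0.08, adjusted p = 0.000248, edgeR). In both genes the KCl values lay above all untreated values with little spread inside a group. The RNAseq log2 fold change was 0.18 for Sparc (adjusted p = 0.269, edgeR) and -0.07 for Tnc (adjusted p = 0.726, edgeR). For TE it was 0.17 for Sparc (adjusted p = 0.667, edgeR) and 0.46 for Tnc (adjusted p = 0.0895, edgeR), neither called, although the TE of Tnc was called without untreated culture 1 (0.45, adjusted p = 0.0447, edgeR).

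The fibrillar collagens Col1a1 and Col3a1 lost footprints, and this was not matched by their RNA. Col1a1 encodes the main chain of type I collagen and lies on chromosome 11 from 94936224 to 94953042. Its RNAseq level was 57.5, 61.2 and 52.0 normalized RPKM without and 47.0 and 41.9 with KCl. In RF it had 215, 139 and 207 without and 57.0 and 82.4 with KCl. In both assays the KCl values lay below all untreated values, with a wider gap in RF. The log2 fold change was -0.36 in RNAseq (SE 0.13, adjusted p = 0.0283, edgeR) and -1.39 in RF (SE 0.30, adjusted p = 0.0248, edgeR). TE was 3.74, 2.26 and 3.97 without and 1.21 and 1.97 with KCl. Its log2 fold change was -1.04 (SE 0.17, adjusted p = 2.92e-07, edgeR), the 149th lowest of 7262. This SE is below that of RF alone (0.30), and the TE fit takes a single dispersion per transcript over both assays. The adjusted p of TE therefore does not measure how far TE spread between cultures. With RNAseq reads on the CDS only, the RNAseq change of Col1a1 was -0.08 (adjusted p = 0.77, edgeR) and no longer called, and the call was also lost without untreated culture 2 (adjusted p = 0.144, edgeR), KCl culture 4 (adjusted p = 0.0617, edgeR) or KCl culture 5 (adjusted p = 0.271, edgeR). It was lost as well with filterByExpr (adjusted p = 0.111, edgeR), with no filter beyond 1 read (adjusted p = 0.13, edgeR) and in a single fit of all 10 libraries (adjusted p = 0.117, edgeR). The TE call was lost in DESeq2 (adjusted p = 0.173) and in edgeR without untreated culture 1 (adjusted p = 0.217) or without KCl culture 4 (-0.71, adjusted p = 0.0915), and the RF call without untreated culture 3 (-1.33, adjusted p = 0.0615).

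Col3a1 encodes type III collagen, which is laid down in fibres together with type I, and lies on chromosome 1 from 45311538 to 45349706. Its RNAseq level was 26.1, 24.8 and 19.6 normalized RPKM without and 30.5 and 27.6 with KCl. Its RF level was 104, 66.7 and 91.3 without and 47.0 and 52.0 with KCl. The KCl cultures thus lay above all untreated cultures in RNA and below all of them in footprints. The RNAseq log2 fold change was 0.31 (SE 0.14, adjusted p = 0.1, edgeR) and the RF log2 fold change was -0.81 (SE 0.18, adjusted p = 0.00603, edgeR). TE was 3.99, 2.69 and 4.65 without and 1.54 and 1.88 with KCl. The TE log2 fold change was -1.10 (SE 0.18, adjusted p = 1.99e-07, edgeR), the 130th lowest, and leaving out any 1 culture gave values from -1.33 to -0.95. DESeq2 gave -1.11 with an adjusted p of 0.000487. The edgeR SE of TE is no larger than that of RF alone (0.18), so the limit on the TE p of Col1a1 applies to Col3a1 too.

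**Figure D3:**
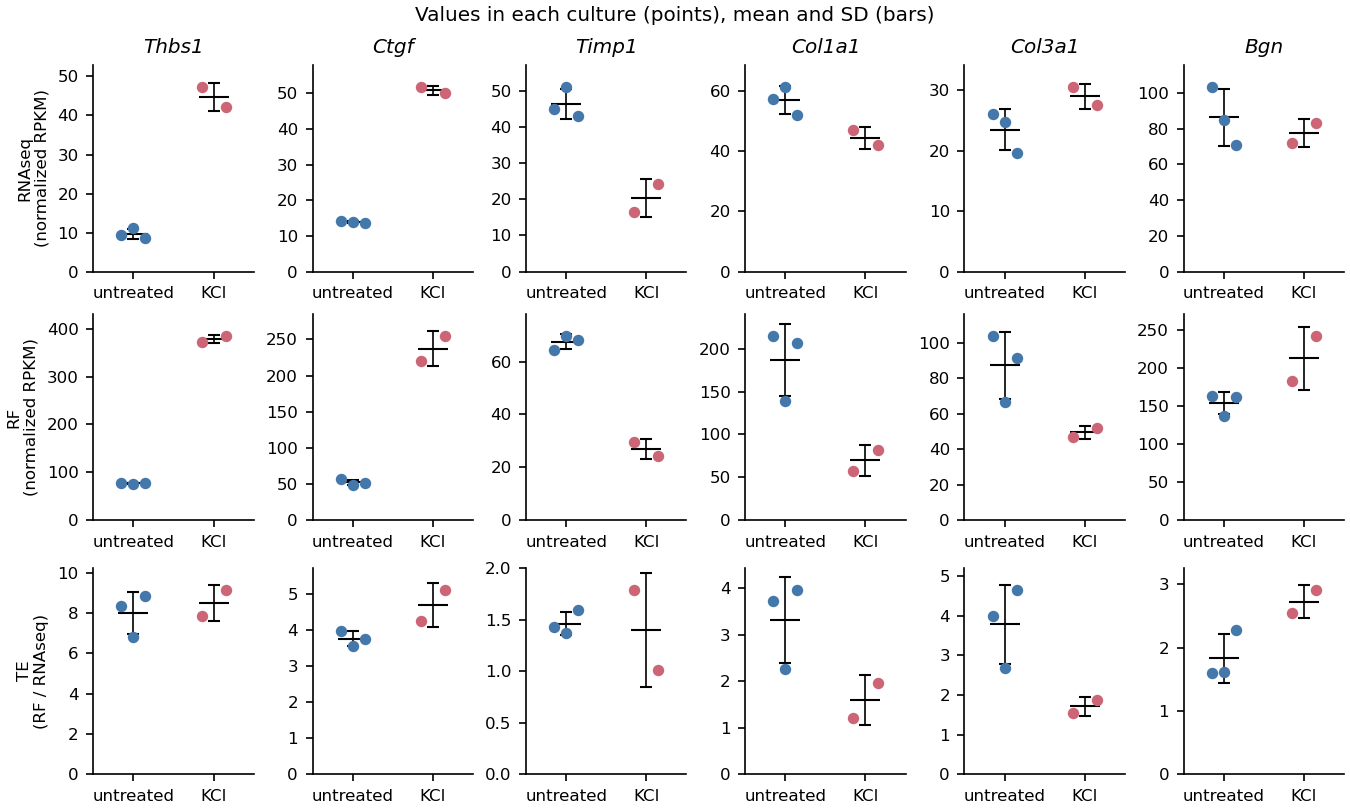
RNAseq level, RF level (both in normalized RPKM) and TE of 6 matrix genes are plotted for each culture on axes that start at 0, with untreated cultures in blue, KCl cultures in red, and bars for the mean and SD of 3 and 2 cultures. Thbs1 and Ctgf rise and Timp1 falls in RNAseq and RF, whereas Col1a1 and Col3a1 fall mainly in RF and TE and Bgn rises in RF and TE.

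The other fibrillar collagens lay under the minimum, where fold changes come from a fit of all transcripts that pass edgeR's filterByExpr. In that fit the fold changes of the 17 measured members were a median of 0.07 higher in RNAseq and in RF than above, and 0.00 higher in TE. Col5a2, which carries the shared start letters and lies on chromosome 1 from 45374321 to 45503282, did not follow Col1a1 and Col3a1. Its RF level was 47.5, 36.7 and 53.2 normalized RPKM without and 58.0 and 60.5 with KCl, a log2 fold change of 0.47 (SE 0.11, adjusted p = 0.00117, edgeR). Its TE log2 fold change was 0.25 (SE 0.21, adjusted p = 0.692, edgeR). Col5a1, which lacks the letters, had RF levels of 18.0, 12.5 and 16.8 without and 8.76 and 11.0 with KCl. Its RF fell by 0.57 on the log2 scale (SE 0.16, adjusted p = 0.00451, edgeR), and its TE log2 fold change was -0.56 (SE 0.26, adjusted p = 0.305, edgeR). Since the letters were derived from Col1a1 and Col3a1, Col5a2 is the only carrier that was not used to find them. Whether the letters bear on the changes after KCl was not tested. The RNAseq log2 fold change was 0.22 for Col5a2, -0.02 for Col5a1 and 0.06 for Col5a3, none called.

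Untreated culture 2 had the lowest footprint level of the 3 untreated cultures in 10 of the 12 listed collagens (83.3%), in 7 of the 24 other members (29.2%) and in 35.4% of all measured transcripts. In RNAseq it was the lowest in 2 of the 12 collagens (16.7%) and in 31.3% of all. The RF log2 fold change of Col4a2 became -0.28 and was called without this culture (adjusted p = 0.00649, edgeR). The choice of untreated culture 2 and of the collagens for these counts was not planned beforehand, and the counts were not tested.

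Footprints on the 5′UTR of Col1a1 and Col3a1 took a larger part after KCl. A share above all untreated cultures was no more frequent in the measured members (3 of 17) than in all transcripts with enough such footprints (17.9%). The share was computed as footprints on the 5′UTR over those on the 5′UTR and CDS, with exact binomial 95% intervals that cover counting error only. For Col1a1 it was 4.21% (3.76 to 4.7), 5.96% (5.25 to 6.73) and 4.23% (3.19 to 5.49) in the untreated cultures. It was 9.44% (6.73 to 12.8) and 6.64% (5.21 to 8.31) in the KCl cultures. Both KCl values lay above all untreated values, but the interval of KCl culture 5 overlaps those of untreated cultures 2 and 3, and that of KCl culture 4 meets that of untreated culture 2. For Col3a1 it was 2.4% (1.91 to 2.96), 1.34% (0.867 to 1.97) and 3.2% (1.91 to 5.01) without and 7.52% (4.88 to 11.0) and 7.53% (5.66 to 9.79) with KCl. The KCl shares of Col3a1 were thus nearly equal and lay above every untreated share, although the interval of KCl culture 4 just overlaps that of untreated culture 3.

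The rise of the share had different components in the 2 genes. In normalized CPM (footprints scaled to library size), the 5′UTR of Col1a1 held 41.2, 38.3 and 39.8 without and 25.9 and 25.5 with KCl, so the KCl values were lower here too, with a smaller gap than in the CDS. The 5′UTR of Col3a1 held 11.2, 3.97 and 13.3 without and 16.8 and 18.6 with KCl. For Col5a2 the share was 4.89% ± 0.271 (SD, n = 3) without KCl and 5.21% ± 1.54 (SD, n = 2) with KCl, and the groups overlapped. All 17 measured members had at least 20 footprints on the 5′UTR. Among them the KCl share lay above all untreated cultures in Col1a1, Col3a1 and Agrn, against 17.9% of the measured transcripts with as many footprints. The 5′UTR of Agrn held only 4 and 14 footprints in the KCl cultures. Its share was 0.71% (0.194 to 1.81) in KCl culture 4, close to 0.613% (0.37 to 0.956) in untreated culture 1. The KCl share lay below all untreated cultures in 6 of the 17, Sparc, Tnc, Bgn, Dcn, Mmp14 and Ctgf, against 10.6%. These 6 are all among the 8 members that rose in RF. The gap was minute in Tnc (5.28% in KCl culture 5, 5.29% in untreated culture 1) and in Mmp14 (6.16% and 6.19% in the same cultures). The share of Sparc in KCl culture 4 rested on 4 footprints. In each of the 6, the exact 95% interval of a KCl culture overlaps that of an untreated culture. The share of Bgn went from 9.75% ± 2.7 to 5.36% ± 0.601 and that of Ctgf from 10.3% ± 2.0 to 6.74% ± 1.03. In normalized CPM the 5′UTR of Sparc held 6.23, 13.0 and 11.1 without and 2.8 and 6.2 with KCl, and that of Ctgf 5.28, 6.03 and 7.37 without and 14.7 and 21.5 with KCl. The KCl values of Sparc were thus lower, KCl culture 5 by little, and those of Ctgf were higher. Since the CDS footprints enter both the share and the RF level, these measures are not independent. The shares were compared by overlap only and not tested.

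**Figure D4:**
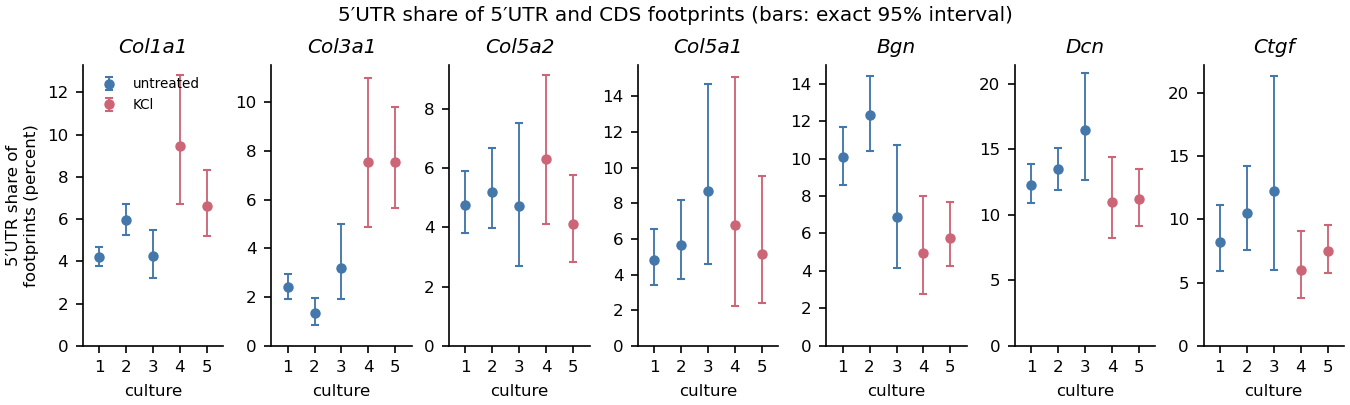
For 7 matrix genes the share of footprints on the 5′UTR, in percent of those on the 5′UTR and CDS, is plotted for each of the 5 cultures with exact 95% intervals, untreated cultures in blue and KCl cultures in red. The red points lie above the blue ones in Col1a1 and Col3a1 and below them in Bgn, Dcn and Ctgf, and overlap them in Col5a2 and Col5a1.

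The small proteoglycans biglycan and decorin, which bind collagen fibres, gained footprints while their RNA did not pass the test. The RF level of Bgn, on chromosome X from 73483602 to 73495933, was 163, 137 and 162 normalized RPKM without and 183 and 242 with KCl. Its TE was 1.59, 1.62 and 2.28 without and 2.54 and 2.91 with KCl. The KCl values lay above all untreated values in both measures, but the KCl cultures differed from each other in RF. The log2 fold change was 0.49 in RF (SE 0.11, adjusted p = 0.00131, edgeR), 0.62 in TE (SE 0.18, adjusted p = 0.0153, edgeR) and -0.15 in RNAseq (adjusted p = 0.444, edgeR). Without KCl culture 5 the RF change was 0.25 (adjusted p = 0.234, edgeR) and the TE change 0.51 (adjusted p = 0.503, edgeR). The TE call was also lost without KCl culture 4 (adjusted p = 0.104, edgeR), without untreated culture 2 (adjusted p = 0.0538, edgeR) and in DESeq2 (adjusted p = 0.112). A second listed transcript of Bgn, which shares reads with the first, had a TE log2 fold change of 0.72 (adjusted p = 0.00674, edgeR). The RF level of Dcn was 208, 238 and 201 without and 255 and 261 with KCl. Its RF log2 fold change was 0.25 (SE 0.09, adjusted p = 0.0355, edgeR), and no culture but untreated culture 2 could be left out without losing this call (adjusted p between 0.0989 and 0.239, edgeR). The call was also lost in DESeq2 (adjusted p = 0.0959), with library totals in place of TMM (0.15, adjusted p = 0.217, edgeR) and in a single fit of all 10 libraries (adjusted p = 0.0993, edgeR). Fn1, which encodes fibronectin, had log2 fold changes of -0.20 in RNAseq, -0.09 in RF and 0.12 in TE, none called.

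**Figure D5:**
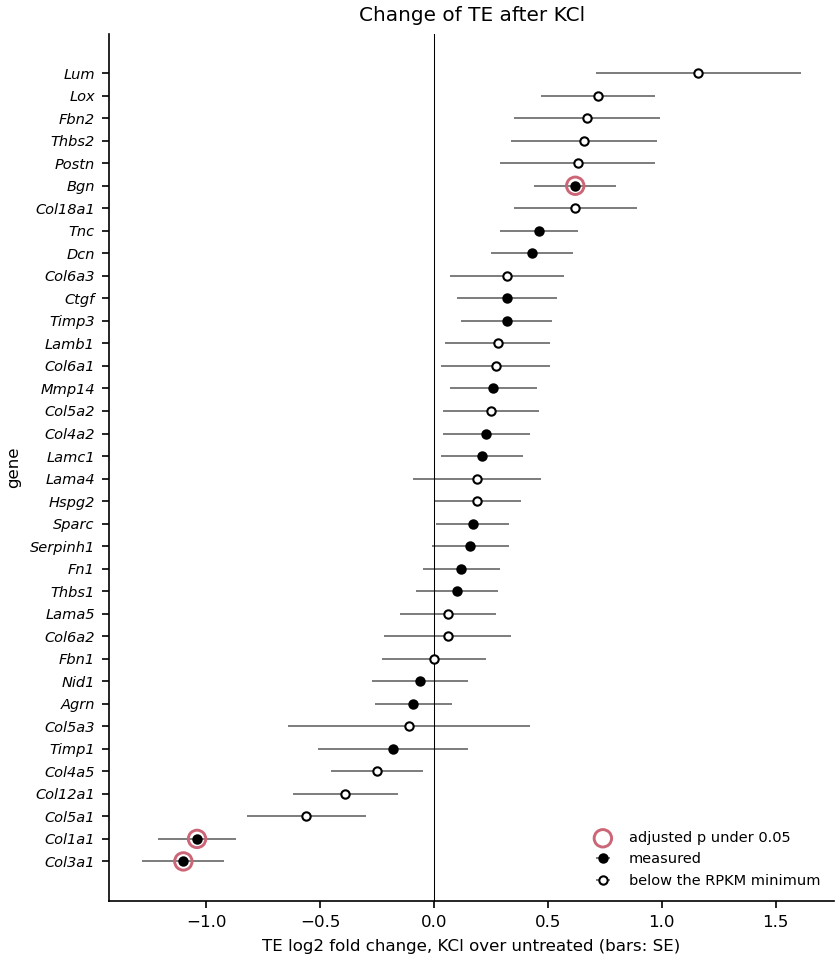
The log2 fold change of TE after KCl is shown with its SE for each of the 36 matrix genes in order, with filled points for measured genes, open points for those under the minimum and red rings for an adjusted p under 0.05. Col3a1 and Col1a1 stand at the bottom near -1.10 and -1.04, and Bgn at 0.62 is the third ringed gene, while Lum at 1.16 has the widest bar of the rises and no ring.

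Of the 4 measured basement membrane genes, Lamc1 and Col4a2 fell in RNAseq and Nid1 and Agrn were not called in any readout. Lamc1 encodes the gamma chain found in most laminins. Its RNAseq level was 27.2, 28.9 and 23.2 normalized RPKM without and 17.2 and 18.4 with KCl. Footprints gave 67.9, 69.8 and 64.3 without and 54.7 and 50.8 with KCl. The groups did not overlap in either assay. Lamc1 had a log2 fold change of -0.57 in RNAseq (SE 0.14, adjusted p = 0.00136, edgeR) and -0.36 in RF (SE 0.09, adjusted p = 0.00194, edgeR), and the RF call was lost without KCl culture 5 (-0.30, adjusted p = 0.102, edgeR). Col4a2, a chain of type IV collagen, had RNAseq levels of 16.7, 18.6 and 17.6 without and 12.8 and 13.3 with KCl. Its RNAseq log2 fold change was -0.43 (SE 0.15, adjusted p = 0.0215, edgeR), a call that was lost without any of the cultures other than untreated culture 1 (adjusted p between 0.0515 and 0.164, edgeR), with RNAseq reads on the CDS only (adjusted p = 0.622, edgeR), with filterByExpr (adjusted p = 0.0736, edgeR) and with no filter beyond 1 read (adjusted p = 0.0868, edgeR). In RF its log2 fold change was -0.19 (adjusted p = 0.201, edgeR), which became -0.41 and was called without KCl culture 5 (adjusted p = 0.0493, edgeR). Nid1, which links laminin to type IV collagen, had log2 fold changes of 0.04 in RNAseq and -0.01 in RF, and Agrn, a heparan sulfate proteoglycan, 0.17 and 0.09.

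Among the genes that remodel or process matrix, Timp1 fell in both assays. Timp1 lies on chromosome X from 20870166 to 20874733. Its RNAseq level was 44.9, 50.9 and 43.0 normalized RPKM without and 16.6 and 24.1 with KCl. In RF the values were 64.3, 69.7 and 68.3 without and 29.6 and 24.3 with KCl. Every KCl value was below every untreated value in both assays. Timp1 had log2 fold changes of -1.18 in RNAseq (SE 0.22, adjusted p = 4.98e-05, edgeR) and -1.35 in RF (SE 0.19, adjusted p = 3.61e-06, edgeR), with -0.18 in TE (adjusted p = 0.852, edgeR).

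Timp3, of the same inhibitor family, had RNAseq levels of 30.6, 29.7 and 25.6 without and 21.1 and 22.6 with KCl, a log2 fold change of -0.39 (SE 0.15, adjusted p = 0.0362, edgeR). This call was lost without any culture other than untreated culture 3 (adjusted p between 0.0501 and 0.249, edgeR), with filterByExpr (adjusted p = 0.11, edgeR) and with no filter beyond 1 read (adjusted p = 0.129, edgeR). Its RF level of 256 ± 25.2 (SD, n = 3) and 243 ± 21.1 (SD, n = 2) was not called, with a log2 fold change of -0.08 (adjusted p = 0.57, edgeR). Mmp14 had RF levels of 145, 149 and 170 without and 192 and 184 with KCl, a log2 fold change of 0.30 (SE 0.09, adjusted p = 0.0103, edgeR). Serpinh1 had RF levels of 461, 404 and 399 without and 470 and 529 with KCl, a log2 fold change of 0.24 (SE 0.09, adjusted p = 0.0267, edgeR). In both genes the KCl values lay above all untreated values, narrowly so in Serpinh1. The call of Mmp14 was lost without untreated culture 1 (adjusted p = 0.0512, edgeR), KCl culture 4 (adjusted p = 0.116, edgeR) or KCl culture 5 (adjusted p = 0.079, edgeR), and with library totals (0.19, adjusted p = 0.0853, edgeR). The call of Serpinh1 was lost without untreated culture 3 (adjusted p = 0.0888, edgeR) or KCl culture 5 (adjusted p = 0.429, edgeR), in DESeq2 (adjusted p = 0.0603), with library totals (0.14, adjusted p = 0.196, edgeR) and in the single fit of 10 libraries (adjusted p = 0.0858, edgeR). In RNAseq their log2 fold changes were 0.03 and 0.09, not called.

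Of the 19 members under the minimum, 3 fell in RNAseq in the filterByExpr fit, against 24.6% of the transcripts it tested in either direction and 11.2% downward. Col18a1, the source of endostatin, had RNAseq levels of 9.2, 8.21 and 6.56 normalized RPKM without and 3.39 and 5.22 with KCl (log2 fold change -0.81, SE 0.22, adjusted p = 0.0031, edgeR). The small proteoglycan Lum had 5.56, 3.97 and 4.96 without and 2.21 and 1.97 with KCl (-1.14, SE 0.37, adjusted p = 0.0155, edgeR). Thbs2 had 3.29, 3.04 and 3.57 without and 1.94 and 1.83 with KCl (-0.74, SE 0.28, adjusted p = 0.0449, edgeR). In each, both KCl cultures lay below all untreated cultures. The RF levels of these 3 genes were not called, with log2 fold changes of -0.20, -0.02 and -0.11. Thbs2 therefore did not share the rise of its paralog Thbs1 in either assay. The RNAseq call of Thbs2 was lost with no filter beyond 1 read (adjusted p = 0.0533, edgeR).

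In RF, 4 of the 19 were called, against 32.5% of the transcripts tested, 17.2% upward and 15.3% downward. Besides Col5a2 and Col5a1 these were the laminin chain Lamb1 and Fbn1, the microfibril protein fibrillin-1. Lamb1 had RF levels of 29.1, 25.6 and 25.0 normalized RPKM without and 28.6 and 34.2 with KCl, a rise (log2 fold change 0.31, SE 0.11, adjusted p = 0.025, edgeR) in which the groups overlap. Fbn1 had 15.9, 14.3 and 15.6 without KCl and 11.4 ± 0.804 (SD, n = 2) with it, a fall without overlap (-0.35, SE 0.12, adjusted p = 0.0198, edgeR). No TE change was called among the 19, against 2.35% of the transcripts tested. Their TE log2 fold changes ran from -0.56 for Col5a1 to 1.16 for Lum, with a median of 0.25 beside 0.01 over all transcripts of that fit. Lox, which cross-links collagen, had 0.72 (SE 0.25, adjusted p = 0.117, edgeR). The laminins Lama4 and Lama5, the perlecan gene Hspg2, the collagens of type VI and XII, Col4a5, Col5a3, Fbn2, Postn and Lox had no call in any readout.

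Genes of 4 matrix pathways were read beside the members, and 33 of them were measured. In RNAseq 3 rose and 5 fell, against 17.5% and 15.7% of all measured transcripts. In RF 7 rose and 3 fell, against 21.2% and 19.8%, and in TE 2 rose and none fell, against 1.67% and 4.13%. With library totals in place of TMM the RF split was 3 up and 9 down. Among 12 measured collagen modifying enzymes, Loxl1, a relative of Lox, fell in RNAseq (log2 fold change -1.17, adjusted p = 8.9e-05, edgeR) and RF (-0.71, adjusted p = 0.00509, edgeR). The prolyl hydroxylase subunits P4ha1 (0.34, adjusted p = 0.0038, edgeR) and P4hb (0.26, adjusted p = 0.0101, edgeR) rose in RF. Among 9 measured matrix receptors the fibronectin receptor chain Itga5 fell in RNAseq (-0.83, adjusted p = 0.000601, edgeR) and RF (-0.78, adjusted p = 8.32e-05, edgeR). The heparan sulfate carrier Sdc2 rose in both (0.45, adjusted p = 0.00629 and 0.52, adjusted p = 0.000106, edgeR). In the same list Itgb8 fell in RNAseq (-0.46) and rose in TE (0.60), and Itgb1 rose in RF (0.21). Among 7 measured proteases and inhibitors, the metalloproteinase Adamts1 rose by 1.10 in RNAseq (adjusted p = 1.62e-06, edgeR) and 1.25 in RF (adjusted p = 1.92e-10, edgeR), Mmp16 rose in both (0.52 and 0.40) and Plat, the tissue plasminogen activator, rose in RF (0.28). Among 5 measured genes of the lectican matrix that surrounds neurons, Vcan fell in RNAseq (-0.76, adjusted p = 9.89e-05, edgeR) and rose in TE (0.55, adjusted p = 0.0311, edgeR), Ptprz1 fell in RNAseq (-0.41) and Ncan fell in RF (-0.34).

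The summed level of fibroblast and mural cell markers was lower with KCl, but single markers differed. The sum gives most weight to the abundant markers, and those that were not measured enter only the sum. The summed RNAseq level of 14 fibroblast and mural cell markers was 199 to 219 normalized RPKM without and 139 to 149 with KCl, and in RF it was 512 to 584 and 406 to 409. None of the 14 had 0 reads. Of the 5 that were measured, 2 fell in RNAseq, against 15.7% of all, the contractile genes Cnn1 (log2 fold change -1.47, adjusted p = 8.25e-06, edgeR) and Tagln (-0.82, adjusted p = 0.000134, edgeR), and 3 fell in RF, against 19.8%, these and Myl9 (-0.70, adjusted p = 0.0335, edgeR). Acta2 (-0.46 in RNAseq and -0.23 in RF) and Aldh1a2 (-0.14 and -0.02) were called in neither assay, and none of the 5 was called in TE. Among the matrix genes, Col1a1, Lum and Timp1 fell in RNAseq, whereas Col3a1 was at 0.31 in RNAseq and not called, Lum was at -0.02 in RF, and Bgn and Dcn rose in RF. The part of these cells in the changes of the matrix genes was not tested. The summed RNAseq level of 11 endothelial markers, none of them measured, was 11.0 to 12.3 without and 11.0 to 11.5 with KCl.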

How the data were processed

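The authors trimmed adapters with Trimmomatic 0.32, removed rRNA reads with STAR 2.3.1z8, aligned the rest with Bowtie2 2.2.2 to an mm10 transcriptome cleared of degenerate sequence, kept multi-mapped reads, and counted reads with bedtools 2.20.1. They deposited raw counts per transcript region. The region letters were read as 5′UTR, CDS and 3′UTR, with 1 region left unnamed. Isoforms and near-identical genes can share reads, and 14 of the 36 genes had more than 1 listed transcript.

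Of 22534 transcripts, 22172 (98.4%) were matched to GENCODE M21 (GRCm38, the assembly of mm10), which gave names, lengths and coordinates. Sequences were read from the spliced GENCODE M21 transcripts, in which a start window can cross a splice junction. The windows printed above each lie within a single exon. Counts were fitted with edgeR 4.0.16 in R 4.3.3 (robust quasi-likelihood, TMM within each assay), RNAseq and RF each on 5 libraries. TE was the assay-by-treatment interaction over 10 libraries, with a term for each culture (block). The pairing comes from the culture numbers in the labels and the shared lysate. Same-numbered RNAseq and RF deviations from the group means correlated between -0.071 and 0.066. SE is the absolute log2 fold change over the square root of F and is approximate. The TE fit takes a single dispersion per transcript for both assays. Its SE and p can thus be too small where footprints spread more than RNA. The positions around start and stop codons that the authors left out for TE could not be left out of counts per region. The scripts (Python 3.11.15, numpy 2.4.6, scipy 1.17.1, pandas 2.3.3) and fits were tested on simulated data. The simulation gave both assays the same dispersion, so it could not show whether the p of TE is too small where footprints spread more than RNA.

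The members, the lists and the rule for named genes (each member called in a readout, with its value in every culture; the 6 highest in untreated RNAseq and the 3 highest and 3 lowest in untreated TE; up to 4 genes of each list, by adjusted p) were chosen with earlier results of these data known. The lists were collagen modifying enzymes, matrix receptors, matrix proteases and inhibitors, brain lectican matrix, and markers of fibroblasts and mural cells, endothelium, astrocytes, neurons and microglia. Alternatives were DESeq2 1.42.0, library totals, filterByExpr, no filter beyond 1 read, a single fit of 10 libraries, 1 transcript per gene, RNAseq reads on the CDS only, TMM over all 10 libraries, no block, and each culture left out. Those for baseline TE, the pathway lists, the genes under the minimum and the 5′UTR share were chosen after seeing the data.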

Additional observations from a re-analysis of the deposited data

How the results depend on the processing

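The number of members called in RNAseq was 7, and 4 with no filter beyond 1 read. It ranged from 4 to 7 with each culture left out. The number in RF was 12, with a range of 8 to 13. The number in TE was 3, with a range of 1 to 3 and 1 in DESeq2. Culture as a replicate block made no difference to the TE count, which was 3 without the block too, and it changed no other member's call. Thbs1, Ctgf and Timp1 in RNAseq and RF, Lamc1 in RNAseq, and Col3a1 in RF and TE, kept direction and call under every alternative run. The RNAseq value of Col3a1, 0.31 and not called, was called at 0.37 with filterByExpr, 0.39 without untreated culture 1 and 0.41 with CDS reads only. The RF value of Col1a1 missed the threshold with filterByExpr (adjusted p = 0.0502, edgeR). Of the 17 measured members, 15 had an untreated TE above the median of all measured transcripts, also with CDS reads only, and 14 to 15 with an untreated culture left out.

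Genes called in the pathway lists ranged from 4 to 11 in RNAseq and from 5 to 15 in RF with each culture left out. In TE they ranged from 0 to 2, and 0 were called in DESeq2, with filterByExpr, with no filter beyond 1 read and with CDS reads only. The cause of these losses was not tested.

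Values that changed sign under some alternative belonged to genes without a call in that readout. In RNAseq, Nid1 was -0.03 with library totals, -0.08 with CDS reads only and -0.10 to 0.12 with a culture left out. Mmp14 was -0.04 with library totals and -0.10 to 0.14 with a culture left out, with -0.02 and -0.0028 without untreated cultures 1 and 3. Serpinh1 ranged from -0.04 to 0.20 with a culture left out. In RF, Nid1 was 0.06 with filterByExpr, 0.05 with no filter and -0.10 to 0.06 with a culture left out. Agrn was -0.02 with library totals and -0.01 to 0.17 with a culture left out. In TE, Nid1 was 0.06 with CDS reads only. With a culture left out the TE values ranged from -0.06 to 0.30 for Fn1, -0.18 to 0.06 for Nid1, -0.22 to 0.04 for Agrn, -0.02 to 0.21 for Thbs1 and -0.52 to 0.30 for Timp1. RF depth was lowest in untreated culture 3 and KCl culture 4, which limits footprint shares of single genes there.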

Other observations

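Among 9 measured astrocyte markers, 3 fell in RNAseq, against 15.7% of all measured transcripts, and 4 rose in RF, against 21.2%. The water channel Aqp4 (TE log2 fold change 0.88, adjusted p = 1.25e-05, edgeR) and the glutamate transporter Slc1a3 (0.65, adjusted p = 0.00354, edgeR) rose in TE, against 1.67% of all. The summed RNAseq level of the 10 listed astrocyte markers was 2883 to 3295 normalized RPKM in the untreated and 2561 to 2702 in the KCl cultures. Their summed RF level went the other way, from 11482 to 12000 in the untreated to 12625 to 12893 in the KCl cultures. Of 5 measured neuron markers, 1, Snap25, rose in RF (against 21.2%) and in TE (against 1.67%), with summed RNAseq levels of 234 to 352 and 295 to 323 for the 10 listed. Of 3 measured microglia markers, 2 rose in RF (against 21.2%), with summed RNAseq levels of 186 to 201 and 168 to 175 for the 10 listed. The summed RF level of the neuron markers was 530 to 847 without and 848 to 967 with KCl. That of the microglia markers was 416 to 469 without and 459 to 533 with KCl.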
